A study of Mus musculus with 6 samples.

Results

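Bile acids leave the hepatocyte mostly as conjugates of taurine or glycine. Except for Acnat1 and Acnat2, the 9 genes described here encode enzymes of this pathway. These enzymes shorten the sterol side chain in the peroxisome, activate the acid with coenzyme A or join it to the amino acid. Acnat1 and Acnat2 are close relatives of the joining enzyme Baat. The 9 genes were chosen by function, from a list of symbols, with earlier results of these data known, and the rule itself uses no measured value. All 9 had a probe set carrying their symbol alone in the platform annotation, out of 22180 genes so represented. Slc27a2 had 2 such probe sets, and the brighter was used. The genes are Baat (acyl transfer to an amino acid), its relatives Acnat1 and Acnat2, Slc27a5 and Slc27a2 (coenzyme A activation), and Amacr, Acox2, Hsd17b4 and Scp2 (peroxisomal shortening).

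The cells were mouse primary hepatocytes, freshly isolated liver cells kept in culture, from wild type adult male C57Bl/6 mice. The treated group received GW4064, a synthetic compound that activates the nuclear receptor FXR, the cell's sensor of bile acids, at 2 µM for 4 h in William's medium without serum, and the control group received the solvent DMSO. Each group holds 3 Affymetrix MoGene-2_0-st arrays of total RNA, numbered 1 to 3 in the titles, and 3 separate hepatocyte preparations are stated for the series. No label ties a number to a preparation or to an animal, so the p-values measure the spread between these arrays.

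In the classical account of the pathway, the side chain of a cholesterol-derived acid is first bound to coenzyme A. The racemase Amacr then sets the configuration of the methyl branch, the oxidase Acox2 introduces a double bond, the bifunctional protein Hsd17b4 hydrates and oxidizes it, and the thiolase product of Scp2 cleaves off a short acyl group. Slc27a5 activates bile acids that return from the gut, and Baat transfers the acyl group to taurine or glycine, mainly taurine in mice. Baat and Slc27a5 have been described as FXR target genes in rat liver. Acnat1 and Acnat2 are close relatives of Baat, and Acnat1 is known as a peroxisomal enzyme that joins fatty acids to taurine.

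As a check of the treatment, the FXR target genes Abcb11, which encodes the bile salt exporter, and Nr0b2, which encodes the repressor SHP, rose by 3.08 and 2.37 on the log2 scale (SE 0.13 and 0.12; 3 arrays against 3; limma adjusted p = 3.70e-05 and 1.17e-04). Deposited values ran from 0.94 to 13.07, and the array medians over genes lay within 0.050 of each other. Hepatocyte markers (8 of 8 measured) had a summed level of 14.62 to 14.65 with DMSO and 14.57 to 14.63 with GW4064 on the log2 scale. The brightest genes carry that sum, with Alb, the albumin gene, between 12.80 and 12.88 on every array. Of the 8 markers, 2 had higher and 6 lower means with GW4064. Hnf4a, a transcription factor gene, was higher by 0.55 (SE 0.12), with pair differences of 0.51, 0.65 and 0.49. Its limma adjusted p was 0.393, and 0.151 with the replicate number as a block. The 5 lists of other liver cells had summed levels that overlapped between the groups. All 4 cholangiocyte markers had higher means with GW4064, with a summed level of 7.63 to 7.99 with DMSO and 7.94 to 8.42 with GW4064, while Epcam lay between 2.60 and 2.75. Most of that sum was Sox9, at 7.09 to 7.58 and 7.48 to 8.08, which was higher with GW4064 in each same-numbered pair by 0.39, 0.47 and 0.50 on the log2 scale (limma adjusted p = 0.858, and 0.204 with the replicate number as a block). The macrophage sum (5 of 5 measured) ran from 8.76 to 10.09 and from 8.67 to 10.02, that of endothelial markers (5 of 5) from 6.79 to 7.30 and from 6.89 to 7.19, that of stellate and fibroblast markers (5 of 5) from 5.97 to 6.10 and from 5.87 to 6.18, and that of lymphocyte markers (2 of 3) from 3.77 to 4.14 and from 3.63 to 3.82. Most of the macrophage sum was Cd68, at 8.53 to 10.02 with DMSO and 8.46 to 9.93 with GW4064, and the other macrophage markers were far dimmer. The part of these cell types in the results below was not tested. In RNA from a whole culture, fewer cells of a type and less RNA per cell cannot be told apart.

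None of the 9 genes changed at a limma p adjusted over all genes under 0.05, either without a block or with the replicate number as a block, a term that removes differences shared by same-numbered arrays. Over all genes 0.0496% passed without the block and 0.0812% with it. Before adjustment, at p under 0.05, limma gave 2 of the 9 lower and 0 higher without the block (3.06% and 2.6% of all genes), and 3 lower and 1 higher with it (5.12% and 4.01% of all genes). The means of 8 genes were lower with GW4064 and that of Amacr was higher. The median log2 change of the 9 was -0.13, beside -0.02 over all genes, of which 55.4% had a lower mean. The smallest p belonged to Acnat2 in both fits, followed by Acnat1 without the block and by Amacr with it.

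Acnat2 had the widest separation of the groups. Its log2 intensities were 7.76, 7.48 and 7.49 with DMSO for replicates 1, 2 and 3, and 6.99, 6.70 and 6.82 with GW4064. Every GW4064 array lay below every DMSO array, and the array with the highest value in each group bore the number 1. The log2 change was -0.74 (SE 0.12), a level 0.60 times that with DMSO (95% interval 0.50 to 0.72). Its p was rank 25 of 22180 genes and rank 4 among the 12286 genes with a lower mean, and it missed the threshold after adjustment (limma adjusted p = 0.122, and 0.0570 with the replicate block). Within same-numbered pairs 1, 2 and 3 the log2 differences were -0.77, -0.79 and -0.68. Across 18 alternative settings the log2 change was -0.82 to -0.65 and the limma adjusted p 0.0515 to 0.795, so the threshold was reached in none. The direction held in all 18, but many of these settings could not reverse it. The block, the level filters and the choice of probe set leave the change of a gene with 1 probe set unaltered. Leaving out arrays cannot reverse the order of groups that do not overlap.

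Acnat1 was also lower with GW4064, with pair differences that varied more than those of Acnat2. The log2 intensities were 5.82, 5.92 and 6.12 with DMSO and 5.39, 5.72 and 5.28 with GW4064. Here too the groups did not overlap, although the gap between the lowest DMSO array and the highest GW4064 array was small. The difference of the means was -0.49 (SE 0.14) on the log2 scale, a level 0.71 times that with DMSO (95% interval 0.58 to 0.88), with a limma adjusted p of 0.647 (0.377 with the block). Pair differences were -0.42, -0.20 and -0.84 on the log2 scale. Acnat1 and Acnat2 were thus the 2 of 9 genes whose groups did not overlap, both lower, and 6.19% of all genes had such a separation downwards. The pair are close paralogues, and because no probe sequence was used, signal from either transcript on the other's probe set was not tested.

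Baat, the conjugating enzyme itself, overlapped between the groups. Its log2 intensities were 6.27, 6.84 and 6.29 with DMSO and 6.31, 6.75 and 5.95 with GW4064. Number 2 was the highest array of each group, and the groups spanned much the same range. Baat thus had a log2 change of -0.13 (SE 0.21, limma adjusted p = 0.998), and its 95% interval corresponds to 0.65 to 1.28 times the DMSO level. With the replicate block that interval narrowed to 0.77 to 1.08 times (limma adjusted p = 0.747). The pair differences were 0.04, -0.08 and -0.34, of mixed sign, and the log2 change became 0.055 without DMSO replicate 2 and 0.064 without GW4064 replicate 3.

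Acnat2, Acnat1 and Baat follow each other on chromosome 4 with no other protein-coding gene between them in the RefSeq table (GRCm38.p6). The change of Acnat2 was lower than that of Baat by 0.61 on the log2 scale, with pair values of -0.80, -0.70 and -0.33. A two-sided exact permutation test of the within-array difference gave p = 0.3 (0.5 adjusted over 5 comparisons between members, which were picked after their values were seen). That test takes the arrays as 3 against 3 without regard to replicate number, and 0.1 is the smallest p it allows. For Acnat1 against Baat the difference was -0.36 (exact permutation p = 0.3). For Acnat2 against Acnat1 it was -0.25, with pair values of -0.34, -0.59 and 0.16, so that in pair 3 Acnat1 had the larger difference (exact permutation p = 0.5). The genes that flank the group were also looked up after the values were seen. Plppr1, beside Acnat2, had a log2 change of 0.17 (SE 0.09, limma adjusted p = 0.941). Its groups did not overlap either, but with GW4064 higher. Mrpl50, a mitochondrial ribosomal protein gene beside Baat, had -0.03 (SE 0.10), and its groups overlapped. The differences between groups in this stretch were thus largest for the Acnat pair among the 10 measured genes around and within it.

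**Figure D1:**
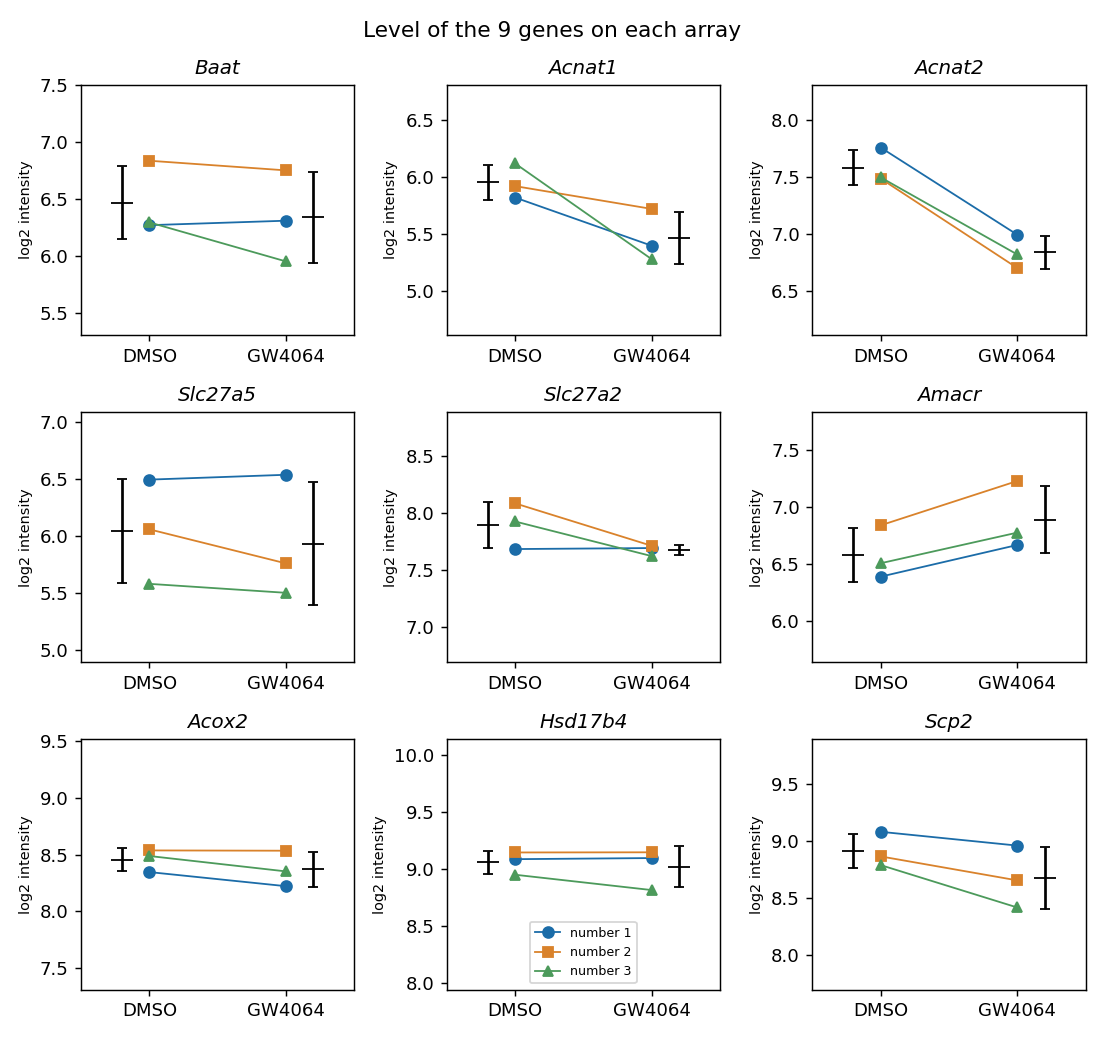
Log2 intensity of the 9 genes on each array, with DMSO on the left and GW4064 on the right of each panel. Lines join same-numbered arrays, and black marks give the group mean ± SD (n = 3). All 3 lines slope down for Acnat2 and Acnat1 with no overlap of the groups. They also slope down for Scp2 and Acox2, where the groups overlap and the Acox2 line of number 2 is nearly flat. All 3 slope up for Amacr. For Slc27a5 the 3 lines are set apart from each other more than they slope, and for Baat the line of number 2 stands above the others.

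Upstream sequence was searched for receptor motifs, and it is shown for the Acnat pair because both genes differed in the same direction. The RefSeq promoter table (GRCm38.p6) lists windows of 250 bases before to 50 bases after a gene start, and it holds 7 windows for 5 of the genes, Acnat1, Acnat2, Slc27a2, Acox2 and Scp2. Baat, Slc27a5, Amacr and Hsd17b4 are not among them. FXR binds with RXR to an inverted repeat of the hexamer AGGTCA, the second copy on the opposite strand, and PPAR receptors bind with RXR to a direct repeat of it, in each case with 1 base of any kind between the copies. Both strands were searched with up to 3 mismatches in the 12 fixed letters, and a stretch can match both motifs. The upstream stretches of 3 genes, 250 bases each, are shown 5′ to 3′ on the gene's strand, those of the Acnat pair and that of the gene with an inverted repeat match. Capitals mark the 13 bases closest to the inverted repeat (for Acnat2 the first of 3 equally close stretches).
Acnat2, chr4:49408152-49408401, minus strand: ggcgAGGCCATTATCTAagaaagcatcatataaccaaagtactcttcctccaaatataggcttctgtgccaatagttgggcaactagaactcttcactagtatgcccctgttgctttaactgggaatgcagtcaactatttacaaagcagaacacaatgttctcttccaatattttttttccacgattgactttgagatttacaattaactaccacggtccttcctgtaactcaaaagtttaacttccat
Acnat1, chr4:49451110-49451359, minus strand: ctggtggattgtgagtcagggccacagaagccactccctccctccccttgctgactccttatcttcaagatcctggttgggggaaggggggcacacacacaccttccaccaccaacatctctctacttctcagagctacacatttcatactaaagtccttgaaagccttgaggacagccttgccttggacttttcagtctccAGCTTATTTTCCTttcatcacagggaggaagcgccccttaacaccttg
Slc27a2, chr2:126552774-126553023, plus strand: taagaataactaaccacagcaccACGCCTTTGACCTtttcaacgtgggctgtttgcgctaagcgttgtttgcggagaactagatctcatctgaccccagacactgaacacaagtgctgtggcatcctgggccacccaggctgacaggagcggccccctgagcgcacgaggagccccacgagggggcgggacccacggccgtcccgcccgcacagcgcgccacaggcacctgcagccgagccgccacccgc

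The closest stretch in the Acnat2 sequence differed from the inverted repeat at 5 letters and that in the Acnat1 sequence at 4, and none of their listed windows held either motif within 3 mismatches. The Slc27a2 stretch, 227 bases before the gene start, matched the inverted repeat with 3 mismatches and, read on the other strand as AGGTCAAAGGCGT, the direct repeat with 3. Of all 32851 windows, 11.4% held the inverted repeat and 24.6% the direct repeat at this limit. Acox2 held direct repeats only, TGGACACAGGACA with 3 mismatches at 57 bases before its outer start and AGGACAGAGGTGA with 2 just past its inner start, a limit that 3.86% of windows met. The hexamer AGGTCA alone, present in 16.3% of windows, occurred in those of Slc27a2 and Scp2. A match of letters is a description of the window, and its absence says only that these letters are not there. GC content was 38.4% in the Acnat2 stretch, 51.6% in that of Acnat1 and 64.0% in that of Slc27a2, so the Acnat stretches also differed in base composition.

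Among the activating enzymes, Slc27a5, the bile acid coenzyme A ligase, varied most over the arrays of all 9 genes. Its log2 intensities were 6.50, 6.06 and 5.58 with DMSO and 6.54, 5.76 and 5.50 with GW4064. Array 1 was the highest and array 3 the lowest in each group, so same-numbered arrays lay close together and the groups overlapped almost fully. The treatment difference was -0.11 on the log2 scale, with an SE of 0.29 without the block and 0.09 with it (limma adjusted p = 0.998 and 0.774). The 95% interval ran from 0.59 to 1.45 times the DMSO level without the block and from 0.79 to 1.08 times with it.

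The genes whose arrays most resembled those of Slc27a5 were Cryab, a small heat shock protein gene, Vtn, which encodes the plasma protein vitronectin, and S100g, a calcium-binding protein gene. Likeness was the root mean square difference of log2 values, each gene centred on its own mean, over 6 arrays, and it was 0.09, 0.09 and 0.10. Their log2 changes were -0.13, 0.00 and -0.15, none with a limma adjusted p under 0.998.

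Slc27a2, a very-long-chain acyl-CoA synthetase that also activates the sterol acids on their way into the peroxisome, was lower in pairs 2 and 3 only. It had log2 intensities of 7.68, 8.09 and 7.93 with DMSO and 7.69, 7.71 and 7.62 with GW4064. The GW4064 arrays lay within a narrow band (SD 0.05), and DMSO array 1 fell inside it. This gave a log2 change of -0.22 (SE 0.12, limma adjusted p = 0.932, 0.578 with the block), with pair differences of 0.01, -0.37 and -0.30. The second probe set was dim, at 2.69, 2.77 and 2.55 with DMSO and 2.37, 2.39 and 2.59 with GW4064. Its mean log2 change was also -0.22, but its groups overlapped and its pairs did not match those of the brighter probe set. On the dim probe set the arrays with the number 1 were lower with GW4064, and those with the number 3 were not.

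Of the peroxisomal enzymes, Amacr was the only member with a higher mean. Its log2 intensities were 6.39, 6.84 and 6.51 with DMSO and 6.67, 7.23 and 6.78 with GW4064. Each GW4064 array lay above the DMSO array of its number, but DMSO array 2 was above GW4064 arrays 1 and 3. The log2 change was 0.31, 1.24 times the DMSO level, with an SE of 0.17 without the block and 0.08 with it. Pair differences were 0.28, 0.39 and 0.27. In limma the p before adjustment was 0.0970 (0.00685 with the block), and the adjusted p was 0.939 (0.352 with the block). With single arrays left out the change was 0.14 to 0.44.

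Scp2 was lower in each pair. Its log2 intensities were 9.08, 8.87 and 8.79 with DMSO and 8.96, 8.65 and 8.42 with GW4064, so array 1 was again the highest and array 3 the lowest in each group. The groups overlapped, since GW4064 array 1 was above DMSO arrays 2 and 3. Scp2 had a log2 change of -0.23 (SE 0.15, limma adjusted p = 0.961), with pair differences of -0.12, -0.21 and -0.37. With the block the unadjusted p was 0.0334 and the limma adjusted p 0.509. The gene also yields the shorter sterol carrier protein 2 besides the thiolase, and a single probe set does not separate these products.

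Acox2 and Hsd17b4 showed the smallest differences. Acox2 lay between 8.35 and 8.54 with DMSO and between 8.22 and 8.53 with GW4064, with a log2 change of -0.09 (SE 0.11) and pair differences of -0.12, -0.0026 and -0.14. Hsd17b4 lay between 8.95 and 9.15 with DMSO and between 8.82 and 9.15 with GW4064, with a change of -0.04 (SE 0.12) and pair differences of 0.0098, 0.0014 and -0.13. Their 95% intervals ran from 0.79 to 1.12 and from 0.81 to 1.17 times the DMSO level (limma adjusted p = 0.998 for each, and 0.795 and 0.915 with the block). In the succession of steps, the difference between the changes of Amacr and Acox2 was 0.40 on the log2 scale, with pair values of 0.40, 0.39 and 0.40 (unpaired two-sided exact permutation p = 0.1, the smallest possible, and 0.5 adjusted over the 5 comparisons).

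**Figure D2:**
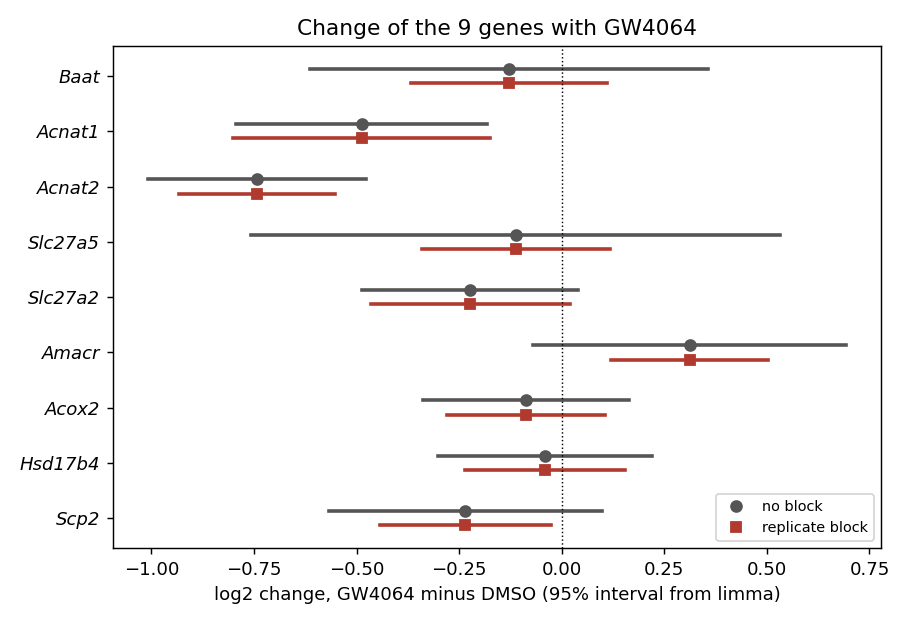
Log2 change with GW4064 for the 9 genes, with 95% intervals from limma without a block (grey circles) and with the replicate number as a block (red squares). The intervals of Acnat2 and Acnat1 lie below 0 in both fits before adjustment, those of Amacr and Scp2 leave 0 only with the block, and the block shortens the interval of Slc27a5 most.

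By same-numbered pairs, 4 genes were lower in all 3 pairs (Acnat1, Acnat2, Acox2 and Scp2), 1 was higher in all 3 (Amacr) and 4 were mixed, beside 18.6% of all genes lower and 12.6% higher in every pair. The pairs differed among themselves. In pair 1, 5 of the 9 genes were higher with GW4064, against 2 in pair 2 and 1 in pair 3, and the median log2 difference of the 9 was 0.01, -0.20 and -0.30. The genes with mixed signs, Baat, Slc27a5, Slc27a2 and Hsd17b4, were each slightly higher with GW4064 in pair 1.

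The 9 genes differed in where their spread lay. Dividing each gene's sum of squares over the 6 arrays, replicate number accounted for 95.2% in Slc27a5, 89.5% in Hsd17b4, 88.5% in Baat, 79.0% in Acox2, 65.3% in Amacr and 64.4% in Scp2. For Acnat2 it accounted for 9.56% and treatment for 90.1%, and for Acnat1 the shares were 8.89% and 70.3%. Slc27a2 lay between, with 28.0% for number and 46.3% for treatment. The median over all genes was 46.7% for number and 11.8% for treatment. Number has more levels than treatment, so it takes a larger share on average even where neither has an effect. The numbers did not order the genes alike. Number 1 had the highest mean for Slc27a5, Scp2 and Acnat2, and number 2 for the other six, with gaps between the highest and lowest number of 0.98 for Slc27a5, 0.67 for Baat and 0.51 for Amacr on the log2 scale.

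**Figure D3:**
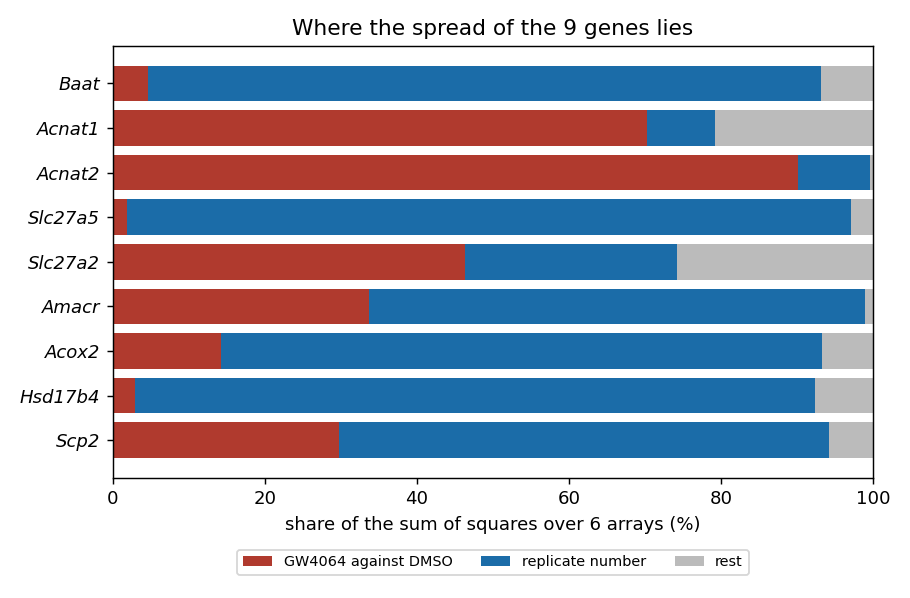
Share of each gene's sum of squares over the 6 arrays that lies between GW4064 and DMSO (red), between replicate numbers (blue) and in neither (grey). Red fills 90.1% of the bar for Acnat2 and 70.3% for Acnat1, whereas blue fills 95.2% for Slc27a5 and 88.5% for Baat.

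Other genes of the pathway were described from 7 lists assembled by function, also with earlier results of these data known. In each list 0 members passed the limma threshold over all genes, with or without the block. Of all genes, 0.0496% passed without the block and 0.0812% with it, so 0 is the usual count for lists this short. Among peroxisomal oxidation and acyl-CoA handling genes (23 of 26 measured), 10 had higher and 13 lower means, with a median log2 change of -0.01, and before adjustment, at p under 0.05, limma gave 3 higher and 0 lower without the block (2.6% and 3.06% of all genes) and 3 higher and 2 lower with it (4.01% and 5.12% of all genes). The 3 higher without the block were Slc25a17, which encodes a peroxisomal membrane carrier for cofactors, at 0.37 (SE 0.12), the transporter gene Abcd2 at 0.29 (SE 0.11), at a low level of 2.33 with DMSO, and Crot, which makes carnitine esters of shortened acyl chains, at 0.29 (SE 0.11). Crot had log2 intensities of 9.46, 9.68 and 9.45 with DMSO and 9.72, 9.97 and 9.76 with GW4064. The 2 lower with the block were Crat, the carnitine acetyltransferase gene, and Ech1, the dienoyl-CoA isomerase gene. Their log2 changes were -0.20 (SE 0.09) and -0.22 (SE 0.14), with blocked limma adjusted p of 0.521 and 0.491. Abcd3, whose product carries the sterol acyl-CoA into the peroxisome, had -0.01 (SE 0.14), and Ehhadh, the bifunctional enzyme gene of straight-chain oxidation, had 0.07 (SE 0.12).

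Peroxisome biogenesis genes (13 of 16 measured) had 6 higher and 7 lower means and a median of -0.01, with Pex26, a membrane anchor of the import machinery, at 0.36 (SE 0.10, limma adjusted p = 0.660). Its log2 intensities were higher in every pair, going from 6.39, 6.48 and 6.22 to 6.75, 6.75 and 6.67. Pex11a, a gene of peroxisome division, had -0.19 (SE 0.10), Pex19 0.24 (SE 0.14) and Pex6 -0.12 (SE 0.10). The import receptor genes Pex5 and Pex7 had -0.04 and -0.06.

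The Acot1 to Acot6 thioesterase genes belong to the same sequence family as Baat and the Acnat pair, and 5 of the 6 had higher means, with a median log2 change of 0.23. Over all genes 55.4% had a lower mean. Acot5 had log2 intensities of 3.60, 3.52 and 3.78 with DMSO and 4.66, 4.13 and 4.26 with GW4064, a change of 0.71 (SE 0.14, limma adjusted p = 0.327, 0.206 with the block). Acot3 had 0.27 (SE 0.10) and Acot1 0.29 (SE 0.20), whereas Acot4 had -0.17 (SE 0.13). The levels of Acot5, Acot3 and Acot1 were low, with means of 3.64, 3.67 and 3.76 with DMSO. The medians over genes of the DMSO arrays were 4.19 to 4.24. Acot2, at a high level of 11.37, had 0.07 (SE 0.14). These are close paralogues as well, and sharing of signal between their probe sets was not tested. Other Slc27 and long-chain acyl-CoA synthetase genes (7 of 9 measured) had a median of -0.04, with Acsl4 at -0.29 (SE 0.10, limma adjusted p = 0.789), Slc27a6 at -0.15 (SE 0.13), Acsl5 at -0.10 (SE 0.09) and Acsl6 at 0.04 (SE 0.12).

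Taurine is the amino acid partner of most mouse bile acids, and 5 of 6 genes of its supply had lower means, beside 55.4% of all genes (median log2 change -0.16). Cdo1, the cysteine dioxygenase gene, went from 10.61, 10.77 and 10.85 with DMSO to 10.40, 10.43 and 10.27 with GW4064, and Fmo1, which can oxidize hypotaurine to taurine, from 6.64, 6.54 and 6.66 to 6.27, 6.34 and 6.21. Neither overlapped between groups, a separation downwards that 6.19% of all genes had. Their log2 changes were -0.38 (SE 0.10) and -0.34 (SE 0.09), each with a limma adjusted p of 0.641 (0.370 and 0.367 with the block). Csad, the decarboxylase gene of the pathway, had -0.24, with an SE of 0.26 without the block and 0.09 with it, and pair differences of -0.14, -0.20 and -0.39 (limma adjusted p = 0.998, and 0.499 with the block), and the taurine transporter gene Slc6a6 had -0.07 (SE 0.20). Gadl1 had 0.12 (SE 0.10).

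Upstream of the peroxisome, the ring and early side chain genes (10 of 10 measured) had 3 higher and 7 lower means and a median of -0.02. Akr1d1, the reductase gene of the steroid nucleus, had 0.47 (SE 0.11, limma adjusted p = 0.534, 0.265 with the block). Its level was low, at 3.02 with DMSO and 3.49 with GW4064. Cyp7b1 had -0.16 (SE 0.12) and Cyp46a1 0.13 (SE 0.11). Akr1c6, at 1.85 ± 0.09 with DMSO and 2.02 ± 0.15 with GW4064, was among the dimmest genes measured, where differences are hard to read. Cyp27a1, which starts side chain oxidation in mitochondria, had -0.05 (SE 0.10). In the sulfation and hydroxylation list (7 of 7 measured, 1 higher, median -0.09) the bile acid hydroxylase gene Cyp3a11 had 0.44, with an SE of 0.37 without the block and 0.14 with it, and was higher in each pair by 0.36, 0.11 and 0.85 (limma adjusted p = 0.994, and 0.476 with the block). The sulfotransferase genes Sult2a3, Sult2a8 and Sult2a1 were similarly dim, at 2.89 ± 0.45, 2.36 ± 0.24 and 1.94 ± 0.26 with DMSO and 2.58 ± 0.25, 2.20 ± 0.12 and 1.83 ± 0.13 with GW4064. The receptor genes themselves had lower means, with Nr1h4, the FXR gene, at -0.72 (SE 0.09, limma adjusted p = 0.0535) and Ppara at -0.48 (SE 0.12, adjusted p = 0.601).

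**Figure D4:**
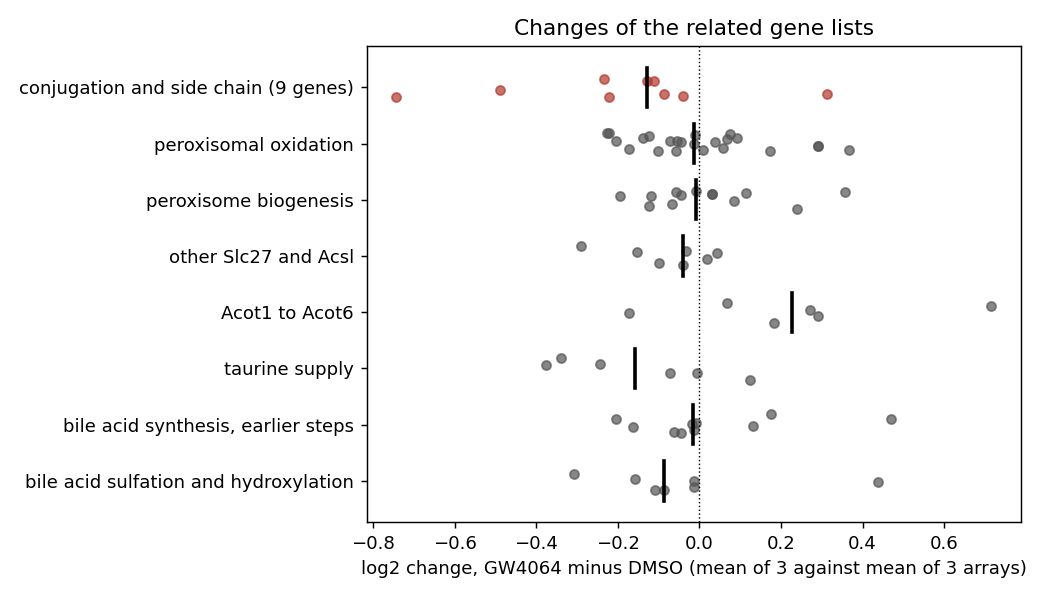
Log2 change with GW4064 for each measured gene of the conjugation and side chain set (red) and of the 7 related lists (grey), as the mean of 3 against 3 arrays, with a black bar at each median. The 2 lowest values, -0.74 and -0.49, are Acnat2 and Acnat1, and the highest is Acot5 at 0.71, a gene below the median level.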

How the data were processed

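RNA of 6 cultures, 3 per group, was measured on one-channel arrays, and titles gave group and replicate number. The authors deposited log2 intensities of probe sets made with RMA, with Partek also named, per the submitters' processing notes. Versions and build are not given in the sources used here, and the log base was inferred from the range. Of 41345 probe sets, 23521 carried exactly 1 symbol, and the brightest per gene was kept. GW4064 and DMSO were compared on all 22180 genes with limma 3.58.1 (lmFit, eBayes) in R 4.3.3, unfiltered, with Benjamini-Hochberg adjustment over all genes, 0.05 as threshold and 95% intervals from moderated standard errors. The number of arrays limits precision. Deviations of same-numbered arrays from the group means correlated at 0.26, 0.34 and 0.45, all above the 0.1 set for pairing, so the blocked fit is given for the 9 genes and for some others, and it changed no adjusted call among the named genes. Alternatives were the block, normalization, filters, probe set choice, the eBayes prior, array weights and arrays left out. The members and lists were chosen with earlier results of these data known. Named list genes are those called in either fit and otherwise up to 4 of smallest p. Abcd3, Ehhadh, Pex5, Pex7, Acot2, Slc6a6, Cyp27a1, Ech1, Hnf4a, Sox9, Epcam, Cd68, Plppr1 and Mrpl50 were named after their values were seen. Promoters are RefSeq's (GRCm38.p6).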

Additional observations from a re-analysis of the deposited data

How the results depend on the processing

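None of the 9 genes passed the adjusted threshold in any of 18 alternatives, and the direction held in all 18 for Acnat1, Acnat2, Slc27a2, Amacr, Acox2 and Scp2. The block, the level filters, the probe set choice and the prior cannot alter the change of a gene with 1 probe set. For Acnat1 and Acnat2, whose groups did not overlap, leaving out arrays could not reverse the direction either. With single arrays left out, the log2 change was -0.34 to 0.064 for Baat, -0.41 to 0.11 for Slc27a5 and -0.10 to 0.061 for Hsd17b4, and leaving out pair 3 gave 0.0056 for Hsd17b4. The number of the 9 with a higher mean went from 1 to between 1 and 4 with single arrays left out, reaching 4 without GW4064 replicate 3, and was 2 without pair 3. Their median change was -0.23 to -0.08 over these array omissions. The count of all genes called was 11, against 18 with the replicate block, 17 with an intensity trend and robust prior, 2 to 5 with single arrays left out, and 2, 4 and 2 without pairs 1, 2 and 3, where fewer arrays entered the fit. The block changed no call among the 9 genes or in the related lists. At up to 2 mismatches, 0 genes matched the inverted repeat and 1 the direct repeat, against 1 and 2 at up to 3. Precision is limited by 3 arrays per group.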
